A study of Rattus norvegicus with 6 samples.

Results

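Integrin and laminin subunit transcripts were examined in cultured neonatal rat heart cells given 3Cl-HBA or its solvent DMSO. The set was defined by gene name, with earlier results of these data known. It took in all integrin alpha genes, numbered integrin beta genes and laminin alpha, beta and gamma genes named as such in the deposited table. This gave 34 of 22250 genes. It held 17 integrin alpha, 7 integrin beta, 4 laminin alpha, 3 laminin beta and 3 laminin gamma subunits. Itgb1 RNA stood far above all other integrin subunits, and Lamc1, Lamb1, Lamb2, Lama2, Lama4 and Lama5 were the abundant laminins. After 3Cl-HBA 0 of 33 tested subunits passed the test for a difference, and among the 19 subunits at 10 FPKM or more the largest fitted shift was 0.914-fold, for Itgav.

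Integrins are cell surface receptors built from 1 alpha and 1 beta subunit that tie the extracellular matrix to the actin cytoskeleton and signal in both directions. Laminins are cross-shaped proteins of the basement membrane, each made of 1 alpha, 1 beta and 1 gamma chain, and they wrap every heart muscle cell, blood vessel and nerve sheath. In heart muscle the beta 1 integrins sit at costameres beside the Z-discs, where with dystroglycan they anchor the contractile apparatus to laminin. The alpha subunit largely sets the ligand of a pair, though the beta subunit also matters. Alpha 3, alpha 6 and alpha 7 bind laminin, and alpha 1, alpha 2, alpha 10 and alpha 11 bind collagen. Alpha 5, alpha 8 and alpha V bind ligands that carry the RGD sequence, such as fibronectin.

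The cells were cardiomyocytes, labelled wild type, freed with collagenase from the hearts of 1-day-old Sprague-Dawley rats and cultured with serum. One group was given 3Cl-HBA, an agonist of HCAR1, the lactate receptor of the series title, at 40 µM, and the other DMSO, both for 48 h, with 3 libraries each. The libraries held 14607337, 17202191 and 15732803 reads assigned to genes after 3Cl-HBA and 13942979, 14499065 and 13240800 in DMSO. Nothing in the labels ties a library to its own culture or litter, so the p-values measure the spread between these libraries, which may be technical. Levels between genes are given as FPKM, the read count scaled by gene length and library total that the authors deposited, and as means ± SD of 3 libraries unless each library is given.

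The labels' protocol names no sorting step, and the libraries carried RNA of several heart cell types. The 6 cardiomyocyte markers summed to between 14890 and 15430 CPM, reads scaled to library size, after 3Cl-HBA and between 14960 and 15830 CPM in DMSO, and none of them was at 0. Fibroblast markers, of which 5 of 6 were in the table, summed to 10930 to 11170 CPM after 3Cl-HBA and 10780 to 11670 CPM in DMSO. Most of this sum was Col1a1, at 10083, 10156 and 10274 CPM after 3Cl-HBA and 10648, 9950.8 and 10753 CPM in DMSO. The 6 macrophage and leukocyte markers summed to 329.6 to 339.6 CPM after 3Cl-HBA and 304.7 to 330.5 CPM in DMSO, 5 endothelial markers to 122 to 133 CPM after 3Cl-HBA and 120.3 to 138 CPM in DMSO, and 6 smooth muscle and pericyte markers to 1545 to 1571 CPM after 3Cl-HBA and 1536 to 1657 CPM in DMSO. Schwann cell and neuronal markers summed to 35.9 to 41.9 CPM after 3Cl-HBA and 35.9 to 40.5 CPM in DMSO, epicardial or mesothelial markers to 118 to 120.5 CPM after 3Cl-HBA and 117 to 119 CPM in DMSO, and platelet markers to 41.2 to 43.03 CPM after 3Cl-HBA and 42.4 to 51.7 CPM in DMSO. None of the tested markers passed the test for a difference, and 3 Schwann cell and neuronal and 4 platelet markers were not tested. The 6 macrophage and leukocyte markers all had log2 fold changes above 0, against 49.8% of all genes. Of the 6 smooth muscle and pericyte markers 5 were below 0. At an unadjusted edgeR p under 0.05, 1 of 6 cardiomyocyte and 1 of 2 tested platelet markers were lower, against 5.11% of all genes in either direction. The part of cell make-up in the subunits' differences was not tested. Among the platelet markers Gp1bb and Ppbp had no reads in any library. A subunit's level is a sum over these cells, and in such bulk samples fewer cells of a type and less RNA per cell cannot be told apart.

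Itgb1, the beta subunit shared by 12 of the alpha subunits measured, dominated the integrin beta class. It had 780, 778 and 759 FPKM in the 3Cl-HBA libraries 1 to 3, against 781, 796 and 731 FPKM in the DMSO libraries 1 to 3. The 2 groups overlapped, and DMSO library 3 was the lowest of the 6. By its mean level over the 6 libraries Itgb1 ranked 47th of all 22250 genes, and it made up 96.9% ± 0.132 of summed beta subunit FPKM after 3Cl-HBA and 96.8% ± 0.341 in DMSO (SD, n = 3 each). The gene lies on the plus strand of chromosome 19 from 61677542 to 61725535 in the deposited coordinates, whose build is not given in the sources used here.

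The other beta subunits were low and kept 1 order in all 6 libraries. Itgb2, the beta chain of white blood cell integrins, had 11.6, 13.7 and 13.1 FPKM after 3Cl-HBA, against 12.7, 11.95 and 15.4 FPKM in DMSO. Itgb3, a partner of alpha V and of the platelet alpha IIb, had 7.13, 6.93 and 6.33 FPKM after 3Cl-HBA, against 6.99, 6.87 and 6.67 FPKM in DMSO. Both genes overlapped between groups, and DMSO library 3 held the highest Itgb2 value. Below them came Itgb8, which with alpha V activates latent TGF-beta, at 2.79 to 3.75 FPKM over the 6 libraries, the epithelial hemidesmosome subunit Itgb4 at 0.895 to 1.66 FPKM, and Itgb6 at 0.436 to 0.576 FPKM. The lymphocyte subunit Itgb7 was at 0.127 to 0.260 FPKM, from 5 to 11 reads per library, and was the only member that did not pass the filter on low counts.

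Among alpha subunits those for fibronectin and related RGD ligands led. Itgav, which encodes alpha V, had 62.4, 69.4 and 69.9 FPKM after 3Cl-HBA, against 73.6, 74.8 and 72.5 FPKM in DMSO. Itga5, the main fibronectin receptor subunit, had 59.7, 60.8 and 60.6 FPKM after 3Cl-HBA, against 62.7, 61.5 and 65.2 FPKM in DMSO. In both genes every 3Cl-HBA library lay below every DMSO library. Itga9, a receptor subunit for tenascin and osteopontin, had 46.5, 48.6 and 50.9 FPKM after 3Cl-HBA, against 52.3, 51.8 and 54.2 FPKM in DMSO, again without overlap. Itga8, which pairs with beta 1 to bind nephronectin and is known from smooth muscle and fibroblasts, had 37.6, 41.1 and 40.1 FPKM after 3Cl-HBA, against 42.1, 42.7 and 39.3 FPKM in DMSO, with overlap.

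The laminin- and collagen-binding alpha subunits formed the next tier. Itga1, a collagen receptor subunit, had 23.1, 25.4 and 30.7 FPKM after 3Cl-HBA, against 28.6, 29.2 and 26.5 FPKM in DMSO, and its 3 treated libraries spread more widely than its DMSO libraries. Itga7, the laminin receptor subunit typical of differentiated muscle, had 24.6, 23.3 and 24.1 FPKM after 3Cl-HBA, against 23.8, 23.0 and 24.5 FPKM in DMSO, a full overlap. Over the 6 libraries the laminin-binding Itga3 had 21.7 to 24.2 FPKM and Itga6 13.8 to 14.8 FPKM, and the fibroblast collagen receptor subunit Itga11 had 11.4 to 13.4 FPKM. The collagen-binding Itga2 and the cartilage-associated Itga10 were at 1.43 to 2.18 and 0.435 to 0.820 FPKM, and Itga4, a subunit for VCAM-1 and fibronectin, at 2.93 to 3.85 FPKM.

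Subunits of white blood cells and platelets were present at low levels. Itgam, the alpha subunit of the complement receptor of macrophages, had 2.91 to 3.50 FPKM, the lymphocyte subunit Itgal 1.502 to 2.30 FPKM, Itgax of dendritic cells and macrophages 1.43 to 1.84 FPKM and Itgae of mucosal lymphocytes 1.25 to 1.80 FPKM. Itga2b, which encodes the platelet alpha IIb, had 0.510 to 0.865 FPKM from 29 to 45 reads. After 3Cl-HBA the log2 fold changes were -0.12 for Itgam, 0.14 for Itgal, 0.20 for Itgax and -0.054 for Itgb2, with edgeR adjusted p from 0.984 to 0.990 for the 4. Itgb2 exceeded the sum of Itgal, Itgam and Itgax 1.94 ± 0.211 times after 3Cl-HBA and 2.06 ± 0.191 times in DMSO (SD, n = 3 each).

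The order of the alpha subunits held in every library for most neighbours. Itgav stood above Itga5 in 6 of 6 libraries, although their ranges over libraries overlapped, and Itga5 above Itga9, Itga9 above Itga8 and Itga8 above Itga1 without overlap of ranges. Itga1, Itga7 and Itga3 could not be ordered beyond their spread, since Itga1 stood above Itga7 in 5 of 6 libraries and Itga7 above Itga3 in 4 of 6. The same held for Itga4 and Itgam, for Itgal, Itga2, Itgax and Itgae, and for Itga2b and Itga10, whose ranges overlapped.

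**Figure D1:**
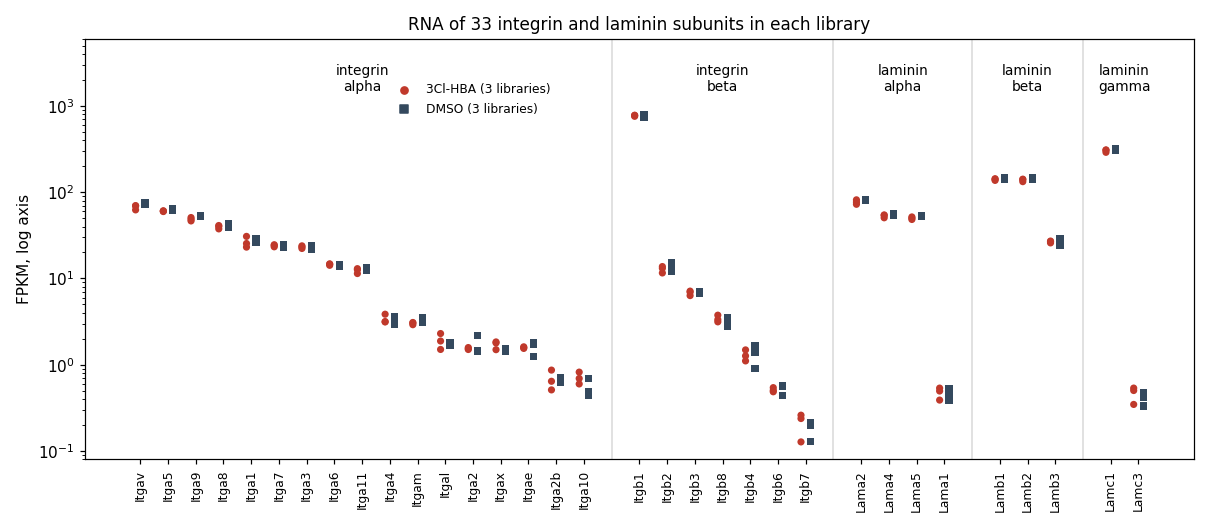
FPKM of 33 of the 34 subunits, on a log axis, by class and in descending order within a class. Circles are the 3 libraries with 3Cl-HBA and squares the 3 DMSO libraries. Itgb1 at 731 to 796 FPKM and Lamc1 at 290 to 316 FPKM stand above the rest.

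Read as pairs, the RNA levels placed alpha V beta 1, alpha 5 beta 1, alpha 9 beta 1 and alpha 8 beta 1 first. Both subunits were in the table for 22 of 24 recognised integrin pairs, and the other 2 pairs, with Itgb5 or Itgad, were not analysed here. In each beta 1 pair the alpha subunit was the scarcer RNA in every library, so the level of the scarcer subunit equalled the alpha levels given above. Itgb1 exceeded Itgav, its most abundant partner, 11.5 ± 0.863 times after 3Cl-HBA and 10.4 ± 0.317 times in DMSO. Summed over its 12 alpha partners the alpha RNA came to 322 ± 12.2 FPKM after 3Cl-HBA and 339 ± 2.03 FPKM in DMSO (SD, n = 3 each). Itgb1 RNA was 2.53, 2.40 and 2.28 times that sum in the 3Cl-HBA libraries, against 2.29, 2.37 and 2.16 times in the DMSO libraries. Some of these alpha chains also pair with other beta chains.

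Alpha V RNA exceeded that of 3 of its other beta chains, while its partner Itgb5 was not analysed here. Summed Itgb3, Itgb6 and Itgb8 RNA was 10.7 ± 0.118 FPKM after 3Cl-HBA and 10.6 ± 0.577 FPKM in DMSO, and Itgav exceeded it 5.77, 6.46 and 6.60 times after 3Cl-HBA, against 6.81, 6.83 and 7.33 times in DMSO. The scarcer subunit of alpha V beta 3 was Itgb3 and that of alpha V beta 8 was Itgb8, and the scarcer one of alpha 6 beta 4 was Itgb4, at 1.28 ± 0.190 FPKM after 3Cl-HBA and 1.31 ± 0.386 FPKM in DMSO. By ligand, the 3 RGD-binding subunits summed to 167 ± 6.52 FPKM after 3Cl-HBA and 178 ± 0.993 FPKM in DMSO, the 3 laminin-binding ones to 61.6 ± 0.793 FPKM after 3Cl-HBA and 61.2 ± 1.89 FPKM in DMSO, and the 4 collagen-binding ones to 41.0 ± 4.74 FPKM after 3Cl-HBA and 43.2 ± 1.33 FPKM in DMSO. RNA levels do not show which pairs were assembled, nor in which cell.

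Lamc1, the gamma 1 chain of nearly all laminins outside epithelia, was the most abundant laminin transcript. It had 290, 308 and 309 FPKM after 3Cl-HBA, against 315, 307 and 316 FPKM in DMSO, and 3Cl-HBA library 1 was the lowest of 6 in overlapping groups. Lamc3 was at 0.332 to 0.535 FPKM, from 22 to 41 reads.

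The 2 main beta chains could not be ordered beyond their spread. Lamb1, the widely expressed beta 1 chain, had 141, 137 and 143 FPKM after 3Cl-HBA, against 140, 139 and 148 FPKM in DMSO. Lamb2, the beta 2 chain of mature muscle and neuromuscular junctions, had 142, 133 and 140 FPKM after 3Cl-HBA, against 144, 139.5 and 149 FPKM in DMSO. Lamb1 stood above Lamb2 in only 2 of 6 libraries, with a ratio of 1.02 ± 0.0193 after 3Cl-HBA and 0.988 ± 0.0146 in DMSO. Lamb3, the epithelial beta 3 chain, was lower at 24.01 to 28.9 FPKM and made up 8.71% ± 0.0677 of beta chain FPKM after 3Cl-HBA and 8.32% ± 0.530 in DMSO.

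Of the alpha chains, which set where a laminin binds, Lama2 of the muscle basement membrane led. Lama2 had 72.4, 76.8 and 81.6 FPKM after 3Cl-HBA, against 81.3, 81.2 and 80.7 FPKM in DMSO, with 2 of 3 treated libraries below all DMSO libraries. Lama4, the chain of vessel walls and embryonic muscle, had 50.5, 53.8 and 54.5 FPKM after 3Cl-HBA, against 53.4, 53.3 and 56.0 FPKM in DMSO. Lama5, a broadly expressed chain that binds alpha 3 beta 1 and alpha 6 beta 1 strongly, had 48.3, 50.0 and 51.7 FPKM after 3Cl-HBA, against 54.1, 52.0 and 54.2 FPKM in DMSO, without overlap. Lama2, Lama4 and Lama5 held 42.6% ± 0.602, 29.4% ± 0.390 and 27.7% ± 0.366 of alpha chain FPKM after 3Cl-HBA, and 42.9% ± 0.627, 28.7% ± 0.546 and 28.2% ± 0.412 in DMSO. Lama1, the chain of the early embryo, was at 0.386 to 0.535 FPKM. Lama4 and Lama5 were not separable in order, since Lama4 stood above Lama5 in 5 of 6 libraries with overlapping ranges.

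All chains were in the table for 12 of 15 recognised laminin trimers. The subunit levels allowed laminins 211 and 221, which consist of alpha 2, beta 1 or beta 2, and gamma 1, at the level of Lama2, followed by laminins 411 and 421 at that of Lama4 and 511 and 521 at that of Lama5, and in these 6 trimers the alpha chain was the scarcest RNA. Lamc1 exceeded Lamb1 and Lamb2 together 1.025, 1.14 and 1.09 times after 3Cl-HBA, against 1.11, 1.10 and 1.07 times in DMSO. It exceeded the 4 alpha chains together 1.69, 1.70 and 1.64 times after 3Cl-HBA, against 1.66, 1.64 and 1.65 times in DMSO. Gamma 1 and the pooled beta 1 and beta 2 RNA were near balance, with alpha chains below both.

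The usual alpha 3 partner of the epithelial chain Lamb3 was scarce. No row of the table was named Lama3, but the row AABR07031193.1, which the authors' table describes as laminin subunit alpha 3, had 0.470, 0.544 and 0.665 FPKM after 3Cl-HBA and 0.621, 0.570 and 0.752 FPKM in DMSO, from 69 to 105 reads. Lamb3 exceeded it 48.5 ± 8.77 times after 3Cl-HBA and 40.4 ± 3.25 times in DMSO.

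**Figure D2:**
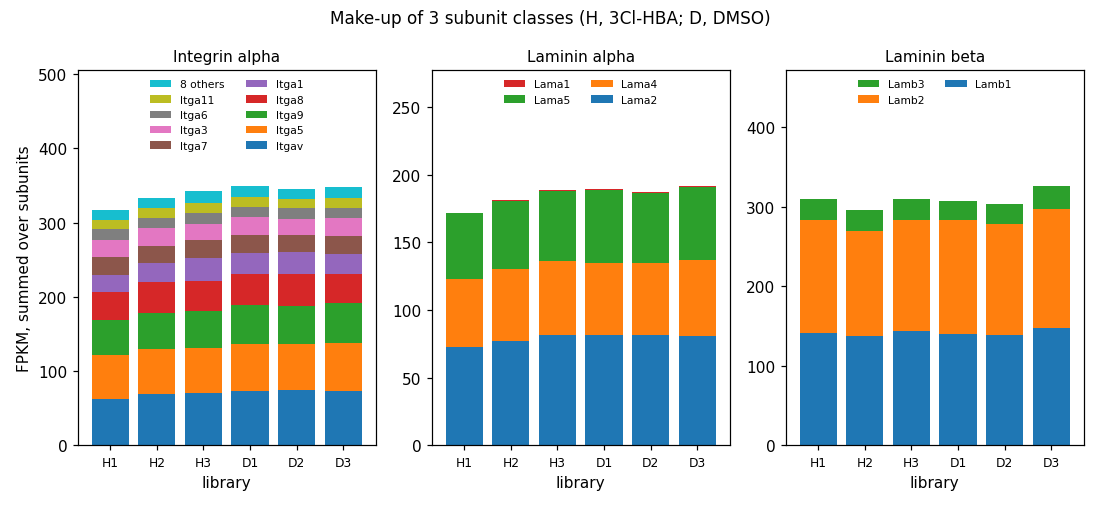
Stacked FPKM of the integrin alpha, laminin alpha and laminin beta subunits in each library (H, 3Cl-HBA; D, DMSO; replicates 1 to 3). Each colour is a subunit, and the make-up of each class is alike in the 6 libraries, with Lama2 at 42.6% of alpha chain FPKM after 3Cl-HBA and 42.9% in DMSO.

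Neighbouring genes of the integrin family differed in level. Itga2 and Itga1 lie 30257 bases apart on the minus strand of chromosome 2 with no other gene of the table between them, and Itga1 exceeded Itga2 17.2 ± 3.00 times after 3Cl-HBA and 17.3 ± 3.69 times in DMSO. In the deposited coordinates the white blood cell genes Itgam and Itgax overlap by 21211 bases on the plus strand of chromosome 1, so their reads may be shared. Of the 34 members 9 overlap another gene, among them Itga1, which overlaps Pelo with 544 to 661 reads on the same strand, and Itgae with 69 to 105 reads, which overlaps Ncbp3 with 446 to 585.

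Promoter sequences are shown for the 2 most abundant members and for 2 white blood cell members, to set widely and narrowly expressed subunits side by side. They come from RefSeq on assembly GRCr8, which may differ from the build of the deposited coordinates, and run 5′ to 3′ from 250 bases before the start of the gene to 50 after it. Capitals mark GGGCGG or its reverse complement CCGCCC, the GC box bound by Sp1 family factors, searched on both strands with overlapping matches counted. Itgb1 is read on the plus strand from chr19:73602027-73602326, Lamc1 on the minus strand from chr13:68051937-68052236, Itgam on the plus strand from chr1:192089342-192089641 and Itgax on the plus strand from chr1:192149799-192150098.
Itgb1: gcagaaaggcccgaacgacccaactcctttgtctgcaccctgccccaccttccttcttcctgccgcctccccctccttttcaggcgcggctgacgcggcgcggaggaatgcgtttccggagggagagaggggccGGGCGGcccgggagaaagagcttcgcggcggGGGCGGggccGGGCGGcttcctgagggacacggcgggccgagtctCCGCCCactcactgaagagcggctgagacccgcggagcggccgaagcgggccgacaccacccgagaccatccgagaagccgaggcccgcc
Lamc1: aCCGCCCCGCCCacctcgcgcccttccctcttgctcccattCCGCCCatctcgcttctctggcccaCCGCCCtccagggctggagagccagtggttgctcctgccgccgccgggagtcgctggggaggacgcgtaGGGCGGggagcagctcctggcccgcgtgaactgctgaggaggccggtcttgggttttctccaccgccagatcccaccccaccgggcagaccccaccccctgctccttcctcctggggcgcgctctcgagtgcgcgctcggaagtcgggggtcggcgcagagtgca
Itgam: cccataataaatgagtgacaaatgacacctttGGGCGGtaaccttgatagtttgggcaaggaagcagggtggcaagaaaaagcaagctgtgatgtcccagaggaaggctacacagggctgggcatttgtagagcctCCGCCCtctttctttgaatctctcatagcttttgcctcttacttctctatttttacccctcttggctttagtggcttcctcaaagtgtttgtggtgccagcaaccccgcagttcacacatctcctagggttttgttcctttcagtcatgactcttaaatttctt
Itgax: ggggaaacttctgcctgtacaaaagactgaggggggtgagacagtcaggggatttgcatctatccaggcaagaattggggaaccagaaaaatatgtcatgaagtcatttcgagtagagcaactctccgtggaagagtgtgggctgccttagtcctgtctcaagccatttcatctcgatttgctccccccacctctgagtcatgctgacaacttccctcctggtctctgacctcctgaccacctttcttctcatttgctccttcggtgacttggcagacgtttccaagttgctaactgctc

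Promoter windows were available for 26 of 34 members, 14 of them at 10 FPKM or more. Itgb1 held 35 CG dinucleotides and 4 GC boxes and Lamc1 28 and 5, whereas Itgam held 3 and 2 and Itgax 5 and 0. The median was 18 CG dinucleotides in these 14 members, with a range of 4 to 35, 7 in the 12 members below, and 7 over all 33469 promoters of the RefSeq table. A GC box was found in 10 of the 14 abundant members and in 5 of the 12 others, against 33.1% of all promoters. The set of all promoters was not matched to the members by expression level. Among the 14, Lama2 with 4 and Lamb3 with 6 CG dinucleotides lay below the median of all promoters, and Lama4, Itga8, Itga1 and Lamb3 held 0 boxes. A match is a description of letters and not a binding site.

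Between treatments, 0 of the 33 tested subunits had an edgeR adjusted p under 0.05, against 0% of the 13903 genes tested. DESeq2 and limma-voom also called 0 subunits, and over all genes they called 0 and 1. Without DMSO library 2 or 3, or without 3Cl-HBA library 2 or 3, edgeR called 1, 8, 2 and 3 genes over the whole table, and 0 subunits each time. At an unadjusted edgeR p under 0.05 there were 3 subunits, 0 higher and 3 lower after 3Cl-HBA, or 9.09%, against 5.11% of all genes, of which 2.52% were higher and 2.59% lower. DESeq2 and limma-voom also gave 3 subunits, against 2.24% and 5.03% of the genes that each tested. The 3Cl-HBA and DMSO libraries did not overlap for 5 subunits, or 15.2%, all lower after 3Cl-HBA, where 10.5% of all genes did not overlap, 5.24% higher and 5.22% lower. These 5 were Itgav, Itga5, Itga9, Itgam and Lama5. Itgam had 3.09, 2.91 and 3.04 FPKM after 3Cl-HBA, against 3.22, 3.10 and 3.50 FPKM in DMSO.

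The 3 subunits with an unadjusted p under 0.05 fell short of the adjusted threshold. Itgav, the alpha V gene on chromosome 3 at 71114100 to 71202411, averaged 67.2 ± 4.19 FPKM after 3Cl-HBA and 73.6 ± 1.14 FPKM in DMSO. Its log2 fold change was -0.13 with an SE of 0.051 (95% interval -0.23 to -0.027; edgeR p 0.014 unadjusted and 0.959 adjusted). Itga9 averaged 48.6 ± 2.20 FPKM after 3Cl-HBA and 52.8 ± 1.24 FPKM in DMSO (log2 fold change -0.12, SE 0.052, unadjusted edgeR p 0.033, adjusted p 0.959). Lama5 averaged 49.996 ± 1.69 FPKM after 3Cl-HBA and 53.4 ± 1.28 FPKM in DMSO (log2 fold change -0.093, SE 0.045, unadjusted edgeR p 0.042, adjusted p 0.959). In each of the 3 genes the lowest value was that of 3Cl-HBA library 1. Without that library the log2 fold change was -0.075 for Itgav, -0.080 for Itga9 and -0.065 for Lama5, and 0 subunits had an unadjusted p under 0.05, against 5.10% of all genes. Without 3Cl-HBA library 3 there were 5, namely Itga1, Itga9, Itgav, Lama2 and Lama5, against 4.87% of all genes. Itgav alone remained without DMSO library 3 or without 3Cl-HBA library 2, against 6.84% and 4.31% of all genes. Without DMSO library 1 there were Itgav and Itga10, against 3.87% of all genes. Without DMSO library 2 Itgav, Itga9 and Lama5 all remained, against 5.18% of all genes.

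**Figure D3:**
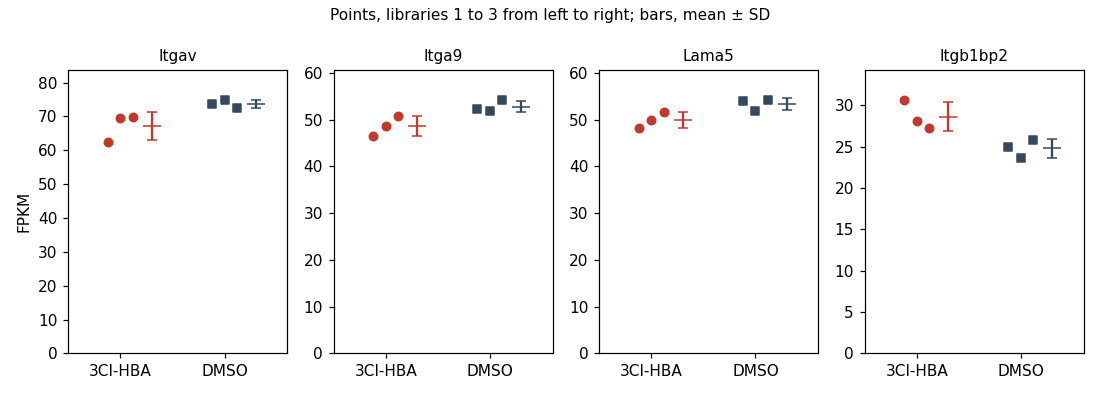
FPKM of Itgav, Itga9, Lama5 and the melusin gene Itgb1bp2 in each library, with mean ± SD (n = 3 each). Itgav, Itga9 and Lama5 are lower in each 3Cl-HBA library than in each DMSO library and Itgb1bp2 is higher, with edgeR adjusted p of 0.959 for each.

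Removing the trend with gene length changed the value of Lama5 more than those of Itgav and Itga9. Tested subunits had a median length of 4674 bases, against 2416 for all tested genes, and 12 of them were among the longest 10%, from 5289 bases. The median log2 deviation of the longest 10% of genes from the mean of the 6 libraries was -0.064, 0.0057 and 0.011 in the 3Cl-HBA libraries 1 to 3, against 0.049, 0.015 and -0.0018 in the DMSO libraries. With each library's length trend removed, Itgav and Itga9 had log2 fold changes of -0.13 and -0.11 with unadjusted edgeR p of 0.0095 and 0.026, and Lama5 had -0.041 with a p of 0.313. The subunits below 0 then numbered 17 of 33, against 20 of 33 without this step, and their median log2 fold change was -0.0016, against -0.016.

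For the abundant subunits the intervals left room for small changes only. Itgb1 averaged 772 ± 11.7 FPKM after 3Cl-HBA and 769 ± 34.0 FPKM in DMSO, and the 95% interval of its fold change ran from 0.95 to 1.06. The muscle laminin receptor subunit Itga7 averaged 24.003 ± 0.678 FPKM after 3Cl-HBA and 23.8 ± 0.764 FPKM in DMSO, with an interval of 0.938 to 1.09. Lama2 averaged 76.9 ± 4.59 FPKM after 3Cl-HBA and 81.1 ± 0.307 FPKM in DMSO, with an interval of 0.893 to 1.01. Lamc1 averaged 302 ± 10.6 FPKM after 3Cl-HBA and 313 ± 5.19 FPKM in DMSO, with an interval of 0.914 to 1.03. Lamb1 had an interval of 0.931 to 1.05 and Lamb2 of 0.903 to 1.02. The interval lay inside 1.5-fold for 30 of 33 tested subunits, or 90.9%, against 80.9% of all genes. It lay inside 2-fold for all 33 tested, against 92.4% of all genes. Of all genes with a mean CPM of at least 5, 97.5% lay inside 1.5-fold and 99.8% inside 2-fold.

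The 3 subunits whose intervals reached past 1.5-fold were Itga2b, Itga10 and Lamc3, all under 1 FPKM. Itga10 had the largest fold change, at 44, 60 and 65 reads after 3Cl-HBA, against 49, 36 and 29 reads in DMSO, which overlap (fold 1.30, 95% interval 0.924 to 1.83, edgeR adjusted p 0.983). Among the 19 subunits at 10 FPKM or more 5 had a log2 fold change above 0 and 14 below, among the 9 at 1 to 10 FPKM 4 and 5, and among the 5 tested ones under 1 FPKM 4 and 1. Over all subunits 13 were above 0 and 20 below, against 49.8% of all genes above and 50.2% below.

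By class, medians were close to that of all genes, which was -0.00051. The median log2 fold change was -0.012 for the 17 integrin alpha subunits, -0.017 for the 6 tested beta subunits and -0.024 for the 10 laminin chains. The SD between replicates of these class medians was 0.034, 0.035 and 0.056, larger than each median. Together the 34 subunits took 0.946%, 0.962% and 0.975% of all reads in the 3Cl-HBA libraries, against 0.989%, 0.983% and 0.984% in the DMSO libraries, with 3Cl-HBA library 1 the lowest.

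**Figure D4:**
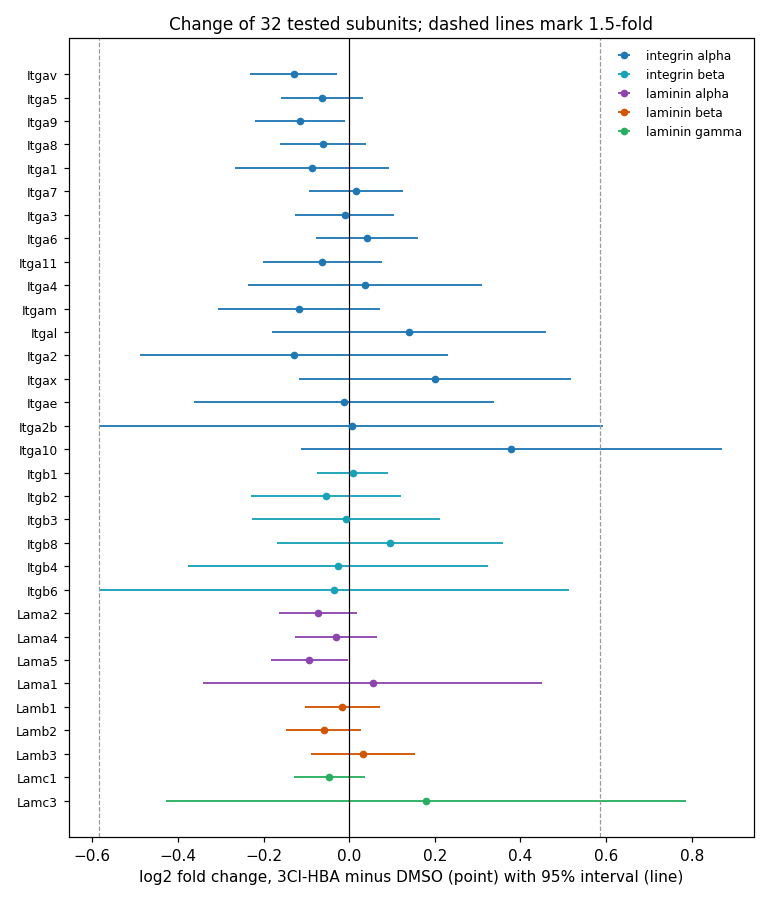
Log2 fold change, 3Cl-HBA minus DMSO, of 32 of the 33 tested subunits (points) with 95% intervals (lines), by class and level. Intervals of Itgav, Itga9 and Lama5 leave out 0 before adjustment for the 13903 genes tested, and only those of Itga2b, Itga10 and Lamc3 cross a dashed line at 1.5-fold.

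Proteins that couple integrins to the cytoskeleton or modify them were described through a list of 36 genes, of which 35 were tested. Of these 0 passed with edgeR, 3 had an unadjusted p under 0.05 (1 higher, 2 lower), or 8.57% against 5.11% of all genes, and the median log2 fold change was -0.017, with 14 above 0 and 21 below. The 3 most abundant were the tetraspanin Cd81 at 807 FPKM after 3Cl-HBA and 808 FPKM in DMSO, the actin cross-linker Actn4 at 181 FPKM after 3Cl-HBA and 182 FPKM in DMSO, and the filamin Flna at 158 FPKM after 3Cl-HBA and 168 FPKM in DMSO. Their log2 fold changes were 0.00072, -0.0057 and -0.085, the last with an unadjusted edgeR p of 0.044 and an adjusted p of 0.959. Itgb1bp2, which encodes melusin, a muscle protein that binds the beta 1 tail and is known from the response to stretch, had 30.6, 28.1 and 27.2 FPKM after 3Cl-HBA, against 25.0, 23.6 and 25.8 FPKM in DMSO. Every treated library lay above every DMSO library, and the fitted log2 fold change was 0.21 with an SE of 0.082 (95% interval 0.045 to 0.38; edgeR p 0.014 unadjusted and 0.959 adjusted). Without 3Cl-HBA library 1, which held its highest value, the log2 fold change was 0.165 with an unadjusted edgeR p of 0.074. Without DMSO library 2 it was 0.173 with a p of 0.063. With any other single library left out, the unadjusted p of Itgb1bp2 stayed under 0.05. Over the list, the 3Cl-HBA and DMSO libraries did not overlap for 7 of the 35 tested genes, or 20%, against 10.5% of all genes. Of these 7 genes 1 was higher after 3Cl-HBA, namely Itgb1bp2, and 6 were lower. The other gene of the list with an unadjusted p under 0.05 beside Flna was the tensin Tns1, at 104 FPKM after 3Cl-HBA and 113 FPKM in DMSO.

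Partners of laminin in the basement membrane and the dystroglycan complex, 32 genes, all tested, likewise gave 0 calls with edgeR. At an unadjusted p under 0.05 there were 3 lower and 0 higher, or 9.38%, against 5.11% of all genes. The 2 groups did not overlap for 4 genes, all lower, or 12.5%, against 10.5% of all genes. The median log2 fold change was -0.041, and 11 were above 0 and 21 below, where 49.8% of all genes were above. The collagen IV chains Col4a1 and Col4a2, the network that laminin sheets are tied to, had 722 and 578 FPKM after 3Cl-HBA and 744 and 612 FPKM in DMSO. Nid1, the nidogen that bridges laminin gamma 1 and collagen IV, had 212 FPKM after 3Cl-HBA and 217 FPKM in DMSO. The 3 with an unadjusted p under 0.05 were Col4a2, Col4a3 at 20.8 FPKM after 3Cl-HBA and 23.4 FPKM in DMSO, and Col15a1 at 3.21 FPKM after 3Cl-HBA and 4.04 FPKM in DMSO. For Col4a1, Col4a2 and Nid1 the log2 fold changes were -0.042, -0.081 and -0.030, with edgeR unadjusted p of 0.294, 0.049 and 0.478 and adjusted p of 0.984, 0.959 and 0.987.

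Ligands of integrins other than laminins ranged from the collagen Col1a1, the most abundant, to genes under 1 FPKM, and gave no calls either. Of 34 listed genes 32 were in the table and 30 were tested, with 0 passing in edgeR, 1 lower and 0 higher at an unadjusted p under 0.05 (3.33%, against 5.11% of all genes), 15 above 0 and 15 below, and a median log2 fold change of 0.0038. Collagen Col1a1 had 1745 FPKM after 3Cl-HBA and 1795 FPKM in DMSO, fibronectin Fn1 753 FPKM after 3Cl-HBA and 767 FPKM in DMSO, and collagen Col3a1 660 FPKM after 3Cl-HBA and 663 FPKM in DMSO, with log2 fold changes of -0.039, -0.025 and -0.0062. The 1 gene with an unadjusted p under 0.05 was Tnn, a tenascin, at 0.848 FPKM after 3Cl-HBA and 1.10 FPKM in DMSO. The 2 groups did not overlap for 2 tested genes of this list, 1 higher and 1 lower, or 6.67%, against 10.5% of all genes. Vitronectin (Vtn), a ligand of alpha V beta 3, was at 0.222 FPKM after 3Cl-HBA and 0.170 FPKM in DMSO, from 3 to 9 reads, and was not tested. No alternative called a gene of the 3 lists.

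**Figure D5:**
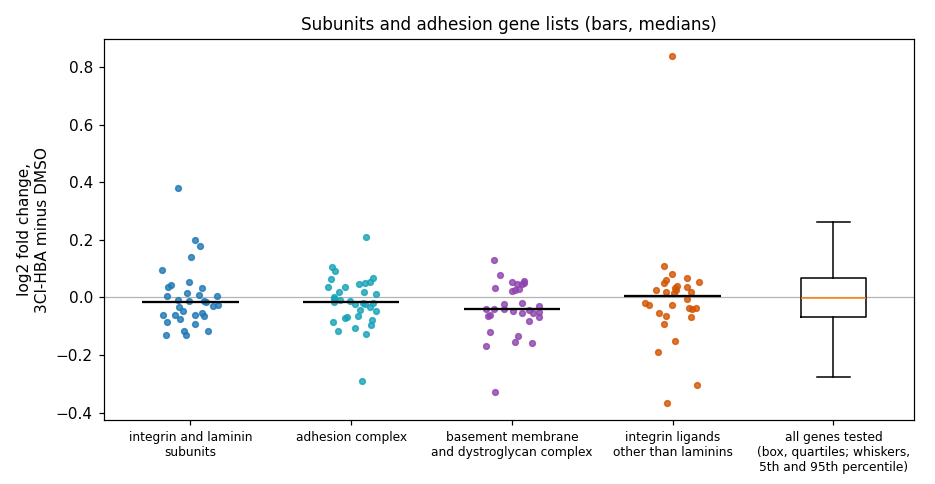
Log2 fold changes, 3Cl-HBA minus DMSO, of the tested subunits and of the 3 gene lists (each point a gene, bars medians), beside a box plot of all 13903 genes tested. Medians of -0.016, -0.017, -0.041 and 0.0038 lie near the median of all genes, -0.00051.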

How the data were processed

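Per the labels' protocols, RNA of the 6 samples went through a KAPA RiboErase kit and Illumina sequencing, and DESeq2 was the authors' tool. The sources used here give no aligner, counting program, strand setting, genome build or annotation. Whether reads of genes that overlap on opposite strands were told apart is therefore not known. The authors deposited whole-number read counts per gene and FPKM, per the file headers. The deposited FPKM could be rebuilt from the count, the deposited gene length and the sum of counts, with a largest relative gap of 8.2e-08.

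Columns were assigned to groups through the treatment protocol in the labels. Counts were fitted over the whole table with edgeR 4.0.16 under R 4.3.3. It used TMM scaling, filterByExpr (minimum count 10, which left 13903 genes), then glmQLFit with robust settings and glmQLFTest on the group alone. Benjamini-Hochberg adjustment ran over all genes tested, with a threshold of 0.05. CPM use TMM-scaled totals, FPKM were not tested, and SEs are the absolute log2 fold change over the square root of F. Alternatives were DESeq2 1.42.0, limma-voom (limma 3.58.1), 2 other scalings, no filter, a replicate block, each library's length trend removed (loess, span 0.5) and each library left out. No 2 libraries agreed within sampling noise (chi-square per degree of freedom 2.78 to 5.14).

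The subunits and lists were chosen with earlier results of these data known. Values in every library are given for Itgb1, Itga7, Lama2, Lamb1, Lamb2 and Lamc1, for the most abundant of each class (6 integrin alpha, 3 integrin beta, 3 laminin alpha, 2 beta, 1 gamma) and for subunits with an unadjusted p under 0.05. The 3 most abundant tested genes of each list and Itgb1bp2 are named. 1 subunit enters the counts and medians and is not reported here. Values of Itga10, Itgam, Vtn, the alpha 3 row and the remaining list genes with an unadjusted p under 0.05 were picked after they were seen. Of 102 listed genes 100 were matched, and of 48 markers 46.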

Additional observations from a re-analysis of the deposited data

How the results depend on the processing

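No alternative called a subunit or a gene of the 3 lists. Over all genes edgeR called 2 with no filter on low counts and limma-voom 1, and leaving out 1 library gave 0 to 8. DESeq2, run on 18107 genes without the filter, had 405 at an unadjusted p under 0.05, against 711 of 13903 with edgeR. Subunits at an unadjusted p under 0.05 numbered 0 to 5 when 1 library was left out and 2 to 3 under the other settings. The integrin alpha median ran from -0.069 to 0.016 without single libraries.

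Direction was followed under the alternatives for 16 genes, Itgb1bp2 included, and 9 of them kept it in each alternative. Other genes given in every library, such as Itgam and Itga10, were not followed in this way. Lamb1 turned to 0.0089 with the length trend removed. Without single libraries the log2 fold change ran from -0.028 to 0.031 for Itgb1, -0.038 to 0.038 for Itgb3, -0.0092 to 0.039 for Itga7, -0.034 to 0.013 for Lamb1, -0.13 to 0.059 for Itgb2, -0.21 to 0.0033 for Itga1 and -0.055 to 0.0055 for Lama4. The cause was not tested.

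Per read in place of per length, Itgav held 15.4% of integrin alpha after 3Cl-HBA and 16.2% in DMSO. Its mean share then lay below those of Itga5, at 18.6% in each group, and Itga8, at 16.3% in each group. Itgb1 held 97.2% of beta after 3Cl-HBA and 97.2% in DMSO, and Lama2 45.1% of laminin alpha after 3Cl-HBA and 45.2% in DMSO. Lama5 held 35.0% after 3Cl-HBA and 35.6% in DMSO, above Lama4 at 19.5% after 3Cl-HBA and 19.0% in DMSO.

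Same-numbered libraries did not deviate together (correlations -0.074, -0.039 and -0.040), and the main test left them unpaired. With 3 libraries per group such correlations cannot show whether same-numbered libraries shared a culture or litter. With a replicate block 0 genes and 0 subunits were called, with 604 genes and 2 subunits at an unadjusted p under 0.05. Subunits under 1 FPKM rest on 5 to 90 reads, which limits what could be detected. The edgeR intervals cover counting error and the spread between these libraries, which may be technical.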
